A study of Mus musculus with 6 samples.

Results

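Neurotrophins are secreted growth factors best known for keeping neurons alive and for shaping their connections. Each is made as a longer proform that proteases trim to the mature factor. The mature factors signal through Trk receptor tyrosine kinases (TrkB for BDNF and NT-4, TrkC for NT-3), while the p75 neurotrophin receptor, a member of the tumor necrosis factor receptor family, binds all of them and pairs with sortilin to bind the proforms. GDNF belongs to a separate family of neurotrophic factors and binds the anchored receptor GFRalpha1, which in turn engages the RET kinase or NCAM. Fibroblasts and other mesenchymal cells also make several of these ligands, which in the embryo reach the nerves that grow into the tissue.

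The genes described here are 8 members of these families, Bdnf, Ntf3, Ngfr, Ntrk2, Ntrk3, Sort1, Gdnf and Gfra1, out of 18872 genes in the deposited table. They were taken from the table by their symbols, all 8 were found, and 7 passed the minimum mean normalized count of 10 that 13986 genes passed. The genes were selected on their normalized counts and on the difference between the groups in this same table, so their differences between groups are given as a description, with intervals and without p-values.

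RNA was sequenced from primary mouse embryonic fibroblasts (MEFs) in 6 libraries, of which 3 carry the label SARAF-KO and 3 the label SARAF-WT (KO-labelled and WT-labelled below). SARAF is a protein that dampens store-operated Ca2+ entry, the inflow of Ca2+ that follows emptying of the stores in the endoplasmic reticulum. The cells came from the trunks of E14.5 embryos, each embryo on its own dish, and were lysed at 75% confluency. The labels give the genotypes SARAF KO and wild type on a B6 background, with no agent added to either. In the study's mice, derived from a Saraf tm1a(KOMP)Wtsi line, both groups are SARAF fl/fl, with loxP sites around the third exon. SARAF-KO animals also carry a PGK-Cre transgene, which the Pgk1 promoter drives in the whole body, and SARAF-WT animals are littermates without Cre. Cre is thus present in 1 group only, and an effect of Cre itself and one of the deletion cannot be told apart. The embryo behind each library is not given, so the spread between libraries, and every p-value, may be technical only.

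The recovered reads summed to between 32799080 and 37979662 per KO-labelled library and between 24595137 and 32228588 per WT-labelled library. Saraf itself ran against the labels, with normalized counts of 4631, 4476 and 4384 in the KO-labelled libraries and 3268, 3409 and 3306 in the WT-labelled ones. Its log2 difference (KO-labelled minus WT-labelled) was 0.43 ± 0.03 (SE), 95% interval 0.37 to 0.49 (limma, adjusted p = 4.2e-12), and an exact two-sided permutation test gave p = 0.1, the smallest that 3 against 3 libraries allow. The table counts the whole gene and does not separate the third exon, so the groups are named below only by their labels, and every direction rests on those labels. The fibroblast markers were the most abundant of the marker lists examined. Their summed normalized count was 332323 to 338376 in the KO-labelled libraries and 406938 to 411809 in the WT-labelled ones, with Fn1 and Col1a2 the highest in the SARAF-WT libraries.

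Promoter sequences are shown for the members whose groups differed most, Ngfr, Ntrk2 and Ntf3, and for Bdnf, whose promoters are textbook targets of Ca2+ signals in neurons. RefSeq windows of 300 bases (250 before and 50 after an annotated start, assembly GRCm38.p6) were found for 6 of the 8 members, 14 windows in all. Capitals mark the GC box GGGCGG, which Sp1-type factors bind, and the TGACG core of the cyclic AMP response element bound by CREB, each on either strand (CCGCCC and CGTCA on the other). They are written 5′ to 3′ on the strand of the gene.
Ngfr, chr11:95587649-95587948, minus strand: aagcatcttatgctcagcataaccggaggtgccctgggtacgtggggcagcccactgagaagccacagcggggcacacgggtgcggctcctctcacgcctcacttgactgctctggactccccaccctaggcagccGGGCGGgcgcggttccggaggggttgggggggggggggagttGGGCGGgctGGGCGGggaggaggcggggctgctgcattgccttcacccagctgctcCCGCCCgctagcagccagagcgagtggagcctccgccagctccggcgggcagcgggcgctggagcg
Ntf3 window 1, chr6:126166695-126166994, minus strand: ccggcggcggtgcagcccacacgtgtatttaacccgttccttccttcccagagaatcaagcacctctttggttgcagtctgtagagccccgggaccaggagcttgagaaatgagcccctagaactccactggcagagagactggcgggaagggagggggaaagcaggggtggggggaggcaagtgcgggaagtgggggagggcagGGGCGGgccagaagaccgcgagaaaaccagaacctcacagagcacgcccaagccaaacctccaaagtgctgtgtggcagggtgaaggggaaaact
Ntf3 window 2, chr6:126164911-126165210, minus strand: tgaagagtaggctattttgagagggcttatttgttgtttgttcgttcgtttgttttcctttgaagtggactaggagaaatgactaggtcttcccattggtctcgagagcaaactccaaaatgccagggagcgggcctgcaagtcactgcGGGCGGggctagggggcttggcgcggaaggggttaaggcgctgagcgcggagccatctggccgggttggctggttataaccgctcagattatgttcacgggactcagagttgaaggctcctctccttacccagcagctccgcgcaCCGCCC
Ntrk2, chr13:58806319-58806618, plus strand: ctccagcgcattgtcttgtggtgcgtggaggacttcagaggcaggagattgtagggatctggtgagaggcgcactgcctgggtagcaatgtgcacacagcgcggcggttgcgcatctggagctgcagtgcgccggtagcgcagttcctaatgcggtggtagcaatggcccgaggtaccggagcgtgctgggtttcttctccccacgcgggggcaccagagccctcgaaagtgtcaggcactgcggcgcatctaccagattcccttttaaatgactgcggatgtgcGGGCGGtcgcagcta
Bdnf window 3, chr2:109692186-109692485, plus strand: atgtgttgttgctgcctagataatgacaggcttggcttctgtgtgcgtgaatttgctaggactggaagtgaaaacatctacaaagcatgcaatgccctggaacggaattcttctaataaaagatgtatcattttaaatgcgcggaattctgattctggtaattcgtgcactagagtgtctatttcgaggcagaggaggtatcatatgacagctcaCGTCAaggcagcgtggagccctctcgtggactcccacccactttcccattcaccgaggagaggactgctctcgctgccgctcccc

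The Ngfr window is the richest of the 14 in G and C (71.7%, against a median of 52.7% over 32851 mouse windows) and holds 4 GC boxes, while 35.7% of all windows hold at least 1. Ntf3 window 1 holds 1 GC box, Ntf3 window 2 holds 2, and the Ntrk2 window 1. Bdnf, whose groups overlapped, has GC boxes as well, 2 in window 2 and 1 in window 4 (sequences not printed). Ntf3 window 1 also holds 1 E-box, CACGTG, a motif in 7.15% of all windows. Of the 7 Bdnf windows, window 3 holds the single CRE core, a motif found in 20.8% of all windows, and 1 of the 2 Gdnf windows holds 1 as well. The Gfra1 window holds none of the motifs searched. A longer motif bound by EGR factors, GCGNGGGCG on either strand, is in 5.55% of all windows and in 0 of these 14. These matches describe letters and not bound sites.

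BDNF, the main activity-dependent neurotrophin of the brain and a ligand of TrkB, was well measured and nearly level between the groups. The gene lies at chr2:109674700-109727007 on the plus strand (GRCm38) and has 11 annotated coding transcripts, which begin at several promoters and share the coding exon. Bdnf had normalized counts of 517, 530 and 551 in the KO-labelled libraries and of 560, 571 and 538 in the WT-labelled ones. The groups overlapped, and the log2 difference (KO-labelled minus WT-labelled libraries, here and below, on log2 of the normalized count plus 1) was -0.06 with a 95% interval of -0.18 to 0.05. The antisense gene Gm45346 overlaps its span, and the library kit does not mark strand. Whether their exons overlap, and so whether they share reads, was not examined. The counts do not separate the promoters.

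Ntf3 encodes NT-3, the ligand of TrkC, which limb and trunk mesenchyme makes for growing sensory axons. It lies at chr6:126101412-126166910 on the minus strand. Ntf3 had normalized counts of 111, 103 and 85.8 in the KO-labelled libraries and of 65.8, 76.7 and 70.9 in the WT-labelled ones. The lowest KO-labelled library lay above the highest WT-labelled one, with means of 100.0 ± 13.0 and 71.2 ± 5.44 (SD, n = 3 each) and a log2 difference of 0.48 ± 0.14 (SE), 95% interval 0.20 to 0.76.

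Ntf5 is no member of the group but encodes NT-4, the other ligand of TrkB. It had normalized counts of 62.9, 55.7 and 70.0 in the KO-labelled libraries and of 94.2, 88.1 and 88.0 in the WT-labelled ones, and fell by 0.52 ± 0.14 on the log2 scale (limma, adjusted p = 0.0028). The ligand genes described here thus shared no direction: Ntf3 was higher and Ntf5 lower in the KO-labelled libraries, and the Bdnf groups overlapped. Ntf5 was named after its values were seen.

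**Figure D1:**
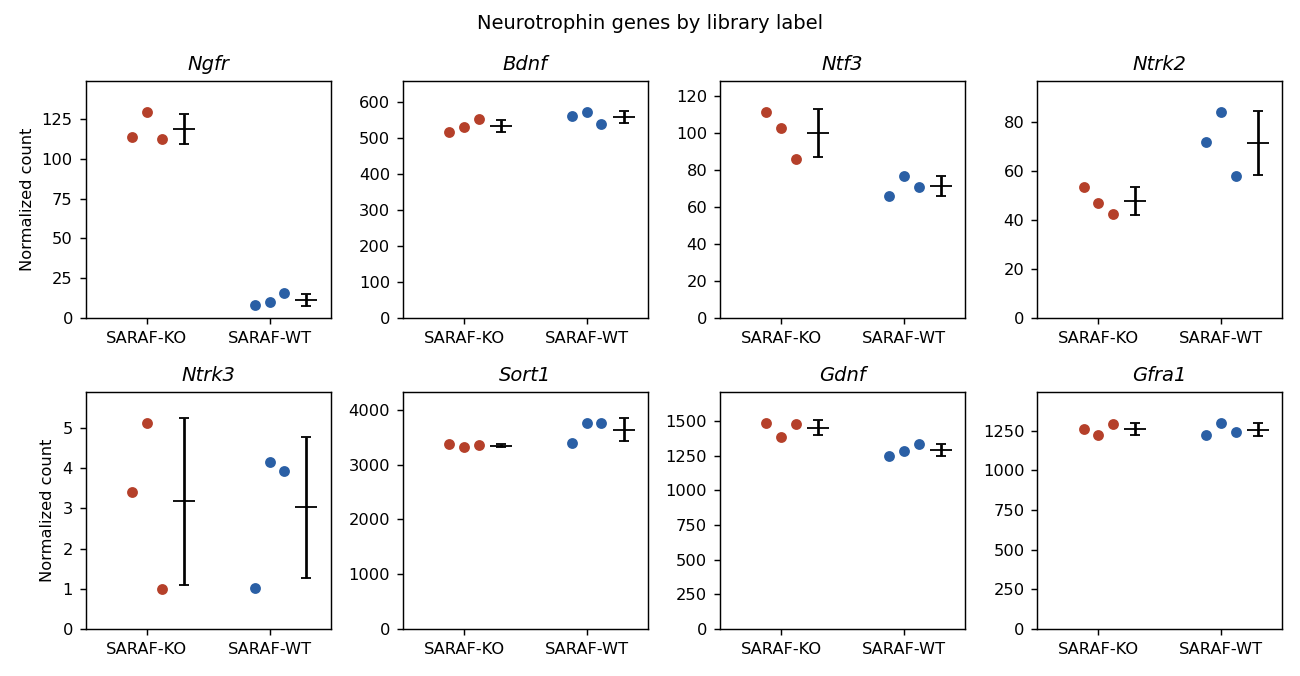
Normalized count of each of the 8 genes (vertical axis, its own scale from 0 in each panel), with 1 point per library and the mean ± SD of 3 libraries beside each group, as labelled. The Ngfr points of the KO-labelled libraries lie between 112 and 129 and the WT-labelled ones between 8.10 and 15.8, while the Bdnf, Ntrk3 and Gfra1 points overlap.

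Ngfr, the p75 neurotrophin receptor, showed by far the widest gap of the members. The gene lies at chr11:95568818-95587735 on the minus strand, has 1 annotated transcript and overlaps no other annotated gene. Ngfr had normalized counts of 114, 129 and 112 in the KO-labelled libraries and of 8.10, 10.4 and 15.8 in the WT-labelled ones. The means were 119 ± 9.37 and 11.4 ± 3.93 (SD, n = 3 each), a ratio of 10.4, and the log2 difference was 3.31 ± 0.22 (SE), 95% interval 2.87 to 3.76. Behind these values were 134, 151 and 114 reads against 8, 10 and 12. The sums of 399 reads (exact 95% Poisson interval 361 to 440) and 30 reads (20.2 to 42.8) are far apart, and each WT-labelled library still held some reads of the gene. These intervals cover counting error only.

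p75 is a marker of neural crest and Schwann cells, so the markers of those cells were read beside it. Sox10, which defines both, was listed at 0 in each KO-labelled library and at 1.01, 0 and 2.63 in the WT-labelled ones. The list (7 of 8 genes in the table) had a summed normalized count of 962 to 1019 in the KO-labelled libraries. In the WT-labelled ones the sum was 1509 to 1567, the opposite order to Ngfr. Such a sum follows the most abundant genes of the list, and its genes moved both ways. Of its 5 genes tested, 1 passed higher and 2 lower (60.0%, beside 56.2% of all genes), with a median log2 difference of -0.09. Within the list, Mbp fell by 0.70 ± 0.04 on the log2 scale (limma, adjusted p = 7.2e-13) and S100b by 1.24 ± 0.17 (adjusted p = 9.1e-07). Cdh19, a cadherin of Schwann cell precursors, rose from 1.01, 2.07 and 0 to 21.3, 34.3 and 24.7 (limma, adjusted p = 1.5e-07).

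Other markers also moved in the direction of Ngfr or against it. The neuron list summed to 1945 to 1972 in the KO-labelled libraries and 1637 to 1794 in the WT-labelled ones. In the table were 9 of its 11 genes, of which 7 were tested. Of these, 3 passed higher and 1 lower (57.1%, beside 56.2% of all genes), with a median log2 difference of 0.09. Stmn2 was at 139, 134 and 145 against 26.3, 20.7 and 35.5. The defining neuronal gene Rbfox3 was at 0 in each KO-labelled library. The mesothelium list (3 of 4 genes) summed to 4723 to 5122 against 1577 to 1647, and the pericyte and smooth muscle list (7 of 7), cells that can carry p75, summed to 6433 to 7057 against 14181 to 17646. The part of these markers in the Ngfr difference was not tested. In bulk RNA a change in the share of cells and a change in RNA per cell cannot be told apart.

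Ntrk2, which encodes TrkB, went the other way. It lies at chr13:58806569-59133970 on the plus strand and has 10 annotated transcripts, 7 of them coding, with coding lengths from 1398 to 2463 bases. Truncated forms of TrkB lack the kinase, and the gene-level counts do not separate them from the full-length receptor. Ntrk2 had normalized counts of 53.5, 47.1 and 42.4 in the KO-labelled libraries and of 71.9, 84.0 and 57.8 in the WT-labelled ones, which do not overlap. The log2 difference was -0.56 ± 0.17 (SE), 95% interval -0.91 to -0.21. Without WT-labelled replicate 2 it was -0.43 and no longer passed the threshold. The span of the gene overlaps 4 noncoding or unclassified genes. Whether their exons overlap its own, and so whether they share reads, was not examined.

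Ntrk3 was at the edge of detection. The gene, which encodes TrkC, the receptor of NT-3, lies at chr7:78175959-78738012 on the minus strand and had 4, 6 and 1 reads in the KO-labelled libraries and 1, 4 and 3 in the WT-labelled ones. The sums of 11 reads (exact 95% Poisson interval 5.49 to 19.7) and 8 reads (3.45 to 15.8) overlapped, and a difference was not detectable at this depth. Per kilobase of exon the normalized count of Ntf3 was 58.3 ± 7.59 and 41.5 ± 3.17 in the KO- and WT-labelled libraries, and that of its receptor Ntrk3 0.11 ± 0.07 and 0.10 ± 0.06, so the ligand transcript was plentiful beside that of the receptor.

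Within each library, the balance of p75 against TrkB transcripts followed from both differences. Per kilobase of exon, Ngfr was 11.9, 15.4 and 14.8 times the level of Ntrk2 in the KO-labelled libraries and 0.63, 0.69 and 1.53 times in the WT-labelled ones. With the longest transcript as the length, the ratios were 5.40, 6.97 and 6.73 against 0.29, 0.31 and 0.69. Another length scales the ratio by the same factor in every library, so its size depends on the length used.

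Sort1 encodes sortilin, a sorting receptor that carries cargo from the Golgi and joins p75 in binding proneurotrophins. It lies at chr3:108284082-108361511 on the plus strand and overlaps 2 noncoding or unclassified genes. Sort1 had normalized counts of 3368, 3328 and 3349 in the KO-labelled libraries and of 3392, 3762 and 3766 in the WT-labelled ones. The groups do not overlap, but the lowest WT-labelled library lay just above the highest KO-labelled one. The log2 difference was -0.12 ± 0.03 (SE), 95% interval -0.19 to -0.05.

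GDNF, a survival factor for motor and enteric neurons, and its receptor GFRalpha1 were both well measured. Gdnf (chr15:7810846-7837575, plus strand) had normalized counts of 1489, 1389 and 1480 in the KO-labelled libraries and of 1246, 1287 and 1334 in the WT-labelled ones. These do not overlap, and the log2 difference was 0.17 ± 0.04 (SE), 95% interval 0.09 to 0.25. Gfra1 (chr19:58235604-58455909, minus strand) had 1263, 1222 and 1296 against 1224, 1301 and 1244. Its groups overlapped and its log2 difference was 0.00 ± 0.04, with an interval of -0.08 to 0.09. The antisense gene Gm16277 overlaps the span of Gfra1, and whether it adds reads was not examined.

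Ret, the kinase that GDNF and GFRalpha1 share, was barely detected, with 15 reads in the KO-labelled libraries and 18 in the WT-labelled ones (exact 95% Poisson intervals 8.40 to 24.7 and 10.7 to 28.4). Ncam1, which encodes the alternative signaling partner NCAM, had 1501 ± 46.6 against 1709.8 ± 34.7 normalized counts and fell by 0.19 ± 0.04 on the log2 scale (limma, adjusted p = 9.8e-05).

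**Figure D2:**
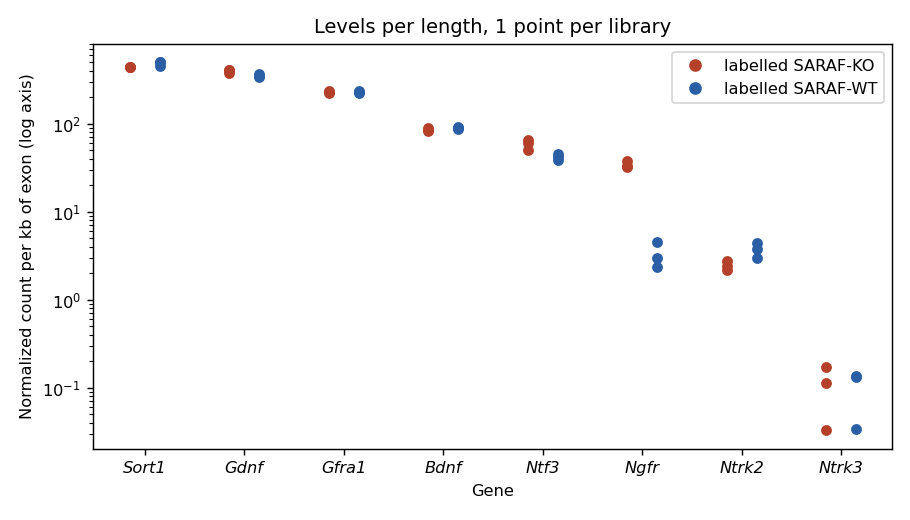
Normalized count per kilobase of exon (log axis) of the 8 genes in each library, red for the KO-labelled libraries and blue for the WT-labelled ones. Sort1, Gdnf and Gfra1 lie highest in both groups, Ntrk3 lowest, and Ngfr lies above Ntrk2 by more than 10-fold only in the KO-labelled libraries.

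Ordered per kilobase of exon, the levels in the KO-labelled libraries fell from Sort1 (442 ± 2.65) through Gdnf (395 ± 15.0), Gfra1 (230.1 ± 6.73), Bdnf (85.7 ± 2.79), Ntf3 (58.3 ± 7.59), Ngfr (34.4 ± 2.72) and Ntrk2 (2.47 ± 0.29) to Ntrk3 (0.11 ± 0.07). No neighbors in this order overlapped. In the WT-labelled libraries the order was the same but for one exchange, with Ntrk2 (3.69 ± 0.68) next to Ngfr (3.31 ± 1.14), and these overlapped. With the longest transcript as the length the order within each group was kept, and Ntrk2 and Ngfr no longer overlapped in the WT-labelled libraries.

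Over the 7 members tested, 5 passed the adjusted threshold of 0.05, Ngfr, Ntf3 and Gdnf higher and Ntrk2 and Sort1 lower in the KO-labelled libraries, and Bdnf and Gfra1 did not. Of all 13986 genes tested, 56.2% passed (28.2% higher and 28.0% lower), and nothing is read from the members' count, since the comparison chose them. In 5 of the 7 the groups did not overlap, as in 61.4% of all genes tested. The median size of the log2 difference was 0.17 over the members and 0.16 over all genes.

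**Figure D3:**
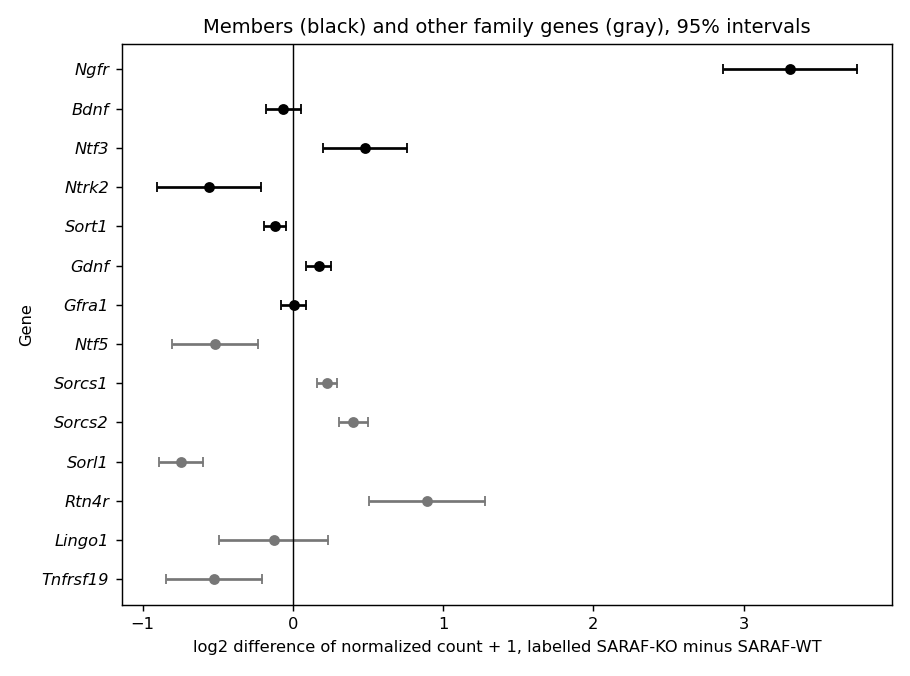
Log2 difference between the KO- and WT-labelled libraries (horizontal axis, points) with 95% intervals (bars), for the 7 members tested in black and 7 other neurotrophin ligands and receptors in gray. The Ngfr interval of 2.87 to 3.76 stands apart from all others, and the intervals of Bdnf, Gfra1 and Lingo1 cross 0.

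The other genes of the pathway were read from 7 lists of 103 gene symbols, of which 101 were in the table and 94 were tested. In all, 64 (68.1%) passed the threshold, 29 higher and 35 lower, beside the 56.2% of all genes. Of the genes named below, Tnfrsf19, Plau, Gfra2 and Spry2 lie on chromosome 14, where 287 of 455 genes tested (63.1%) were lower and 50 (11.0%) higher. No member lies there.

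Among other neurotrophin ligands and receptors, 4 of 8 tested rose and 3 fell. That is 87.5%, beside 56.2% of all genes, with a median log2 difference of 0.05. Sorl1, a sorting receptor of the sortilin family, fell by 0.75 ± 0.07 (limma, adjusted p = 3.6e-09). Its relatives Sorcs2, a proneurotrophin co-receptor of p75, and Sorcs1 rose by 0.40 ± 0.05 (adjusted p = 5.0e-08) and 0.22 ± 0.03 (adjusted p = 2.6e-06). Rtn4r, the Nogo receptor that pairs with p75 to halt axon growth, had normalized counts of 89.2, 68.5 and 92.7 against 56.7, 47.7 and 31.5 and rose by 0.89 ± 0.19 (limma, adjusted p = 0.00025). Its partner Lingo1 did not pass, at -0.13 ± 0.18 (adjusted p = 0.56), and Tnfrsf19, a p75 relative that can take its place in that complex, fell by 0.52 ± 0.15 (adjusted p = 0.0058). The fourth sortilin relative, Sorcs3, had 0 reads in the KO-labelled libraries, with an exact 95% Poisson interval of 0 to 3.69, and 3 reads in the others. Lingo1 and Tnfrsf19 were named after their values were seen.

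Of the proteins that bind the inside of p75, 5 of 10 genes tested rose and 2 fell. That is 70.0%, beside 56.2% of all genes, with a median of 0.08. Maged1, the adaptor NRAGE, fell by 0.24 ± 0.03 (limma, adjusted p = 3.4e-08). Rhoa, the small GTPase that p75 activates, rose by 0.17 ± 0.02 (adjusted p = 1.2e-06), Ngfrap1, a p75-associated death executor, by 0.15 ± 0.03 (adjusted p = 0.00012) and Irak1 by 0.12 ± 0.03 (adjusted p = 0.00020). All 4 changes were small beside that of Ngfr itself. The count of 2 lower was 1 without KO-labelled replicate 1 or 3 or WT-labelled replicate 3.

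Among the proteases and inhibitors that process proneurotrophins and cleave p75, 4 of 15 genes tested rose and 6 fell. That is 66.7%, beside 56.2% of all genes, with a median of -0.05. Mmp3, a stromal metalloprotease that can cleave proneurotrophins, had normalized counts of 3693, 3544 and 3552 against 8125, 9304 and 9035 and fell by 1.29 ± 0.04 on the log2 scale (limma, adjusted p = 7.4e-20). Plau and Plat, the plasminogen activators, fell by 0.77 ± 0.05 and 0.41 ± 0.03 (adjusted p = 8.7e-13 and 6.9e-11), and plasmin is a protease of proBDNF. Pcsk6, a proprotein convertase, fell by 0.69 ± 0.04 (adjusted p = 1.4e-13). Of the 4 that rose, Mmp9, a metalloprotease that also cleaves proneurotrophins, had normalized counts of 59.5, 58.2 and 44.4 against 12.2, 17.6 and 6.57 and rose by 2.15 ± 0.28 (limma, adjusted p = 4.1e-07), against the direction of Mmp3. The proprotein convertases Pcsk5 and Furin rose by 0.59 ± 0.15 (adjusted p = 0.0013) and 0.11 ± 0.03 (adjusted p = 0.00074). Mmp9, Pcsk5 and Furin were named after their values were seen. Aph1a, a subunit of the secretase that cleaves p75 after shedding, was at -0.02, which did not pass, and was named after its value was seen.

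In the list of Trk adaptors and signaling genes, 9 of 30 tested rose and 8 fell. That is 56.7%, beside 56.2% of all genes, with a median of 0.00. Shc2, a neuronal relative of the adaptor Shc1, had normalized counts of 663, 658 and 629 against 1225, 1254 and 1416 and fell by 0.99 ± 0.05 (limma, adjusted p = 1.8e-14). Plcg1, the phospholipase that Trk receptors activate, fell by 0.29 ± 0.03 (adjusted p = 1.5e-09). Akt1, a survival kinase downstream of Trk receptors, rose by 0.26 ± 0.02 (adjusted p = 5.8e-10).

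Genes that respond early to Trk and other growth factor signals all passed in the main fit, 4 of 12 higher and 8 lower. Their median was -0.39, and 56.2% of all genes passed. With DESeq2 3 were higher and 7 lower, and with a library left out 3 to 4 were higher and 7 to 8 lower. Fos and Egr1, immediate early transcription factors, fell by 0.77 ± 0.05 and 0.57 ± 0.04 (limma, adjusted p = 4.3e-12 and 9.1e-12). The feedback inhibitors of the ERK pathway moved apart. Spry2 had normalized counts of 2122, 1900.2 and 2001 against 4178, 4315 and 4486 and fell by 1.11 ± 0.04 (adjusted p = 2.3e-18), while Dusp6, an ERK phosphatase, had 1852, 1822 and 1933 against 1003, 927 and 974 and rose by 0.95 ± 0.04 (limma, adjusted p = 4.3e-16). Serum and many receptors drive these genes, and their link to Ngfr or Ntrk2 was not tested.

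Of the transcription factors known to act on Bdnf, 1 of 11 tested rose and 3 fell. That is 36.4%, beside 56.2% of all genes, with a median of -0.04. Npas4, an activity-induced activator of the Bdnf promoters in neurons, had normalized counts of 16.2, 21.4 and 22.7 against 80.02, 77.7 and 81.4 and fell by 1.95 ± 0.19 (limma, adjusted p = 3.5e-09). Mef2c rose by 0.45 ± 0.05 (adjusted p = 2.7e-08). Usf1 and Bhlhe40 fell by 0.17 ± 0.04 and 0.08 ± 0.03 (limma, adjusted p = 0.00024 and 0.039). Bhlhe40 lost its call with DESeq2, without the filter on low values and in 4 of the 6 fits that left out a library (adjusted p from 0.052 to 0.18). Bdnf itself, at -0.06, stayed within the spread of its libraries.

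Of the GDNF family genes other than Gdnf and Gfra1, 2 of 8 tested rose and 5 fell. That is 87.5%, beside 56.2% of all genes, with a median of -0.23. Sdc3, a heparan sulfate proteoglycan that binds GDNF, had normalized counts of 3737, 3689 and 3627 against 5237, 5214 and 5243 and fell by 0.51 ± 0.03 (limma, adjusted p = 3.1e-14). Gas1, a distant GFRalpha relative, fell by 0.26 ± 0.03 (adjusted p = 3.8e-09) and Gfra2, the neurturin receptor, by 0.36 ± 0.07 (adjusted p = 4.4e-05). Gfra3 had 0 reads in the KO-labelled libraries and 1 in the others. Pspn, a ligand, stayed below the minimum mean at 8.69 ± 1.11 and 5.92 ± 4.53. The count of 2 higher fell to 0 without KO-labelled replicate 1 and without WT-labelled replicate 2, and to 1 without WT-labelled replicate 3.

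**Figure D4:**
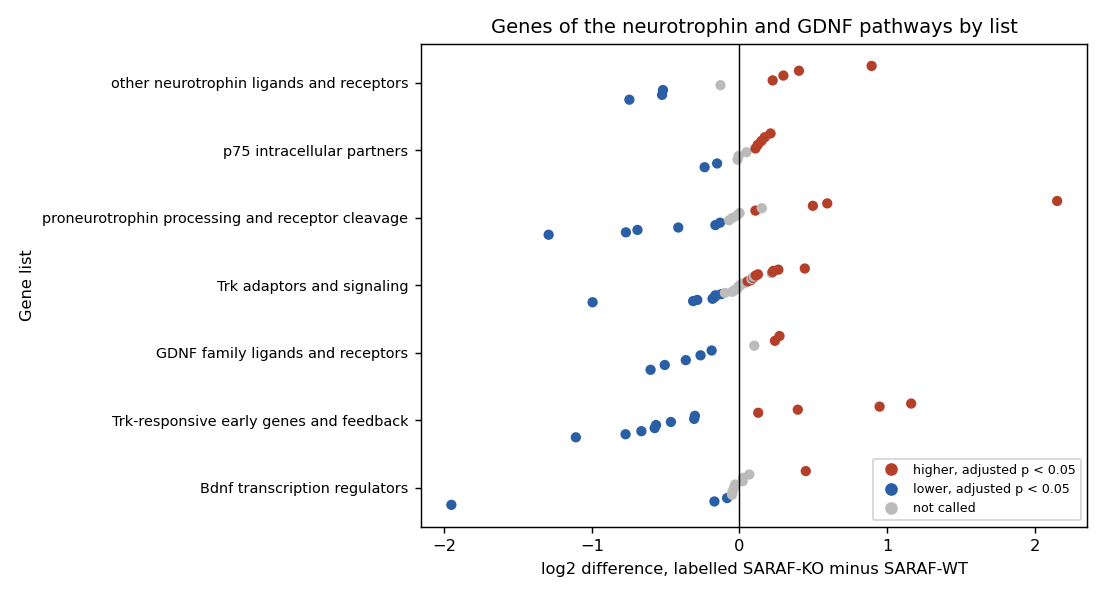
Log2 difference between the KO- and WT-labelled libraries (horizontal axis) for each tested gene of the 7 lists (rows), red where higher and blue where lower past the adjusted threshold of 0.05, and gray otherwise. Each list holds genes on both sides of 0, and the genes farthest from it are Mmp9 at 2.15 and Npas4 at -1.95.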

How the data were processed

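RNA of primary MEFs was sequenced as single-end reads from 6 TruSeq libraries, 3 per label. With TopHat 2.0.10 as aligner and GRCm38 as genome, the authors obtained reads per gene of Ensembl release 82 from HTSeq and normalized them with DESeq2. The deposited signal per library is a normalized count, the reads divided by a size factor. The authors' log2 fold change, Wald score and p-value columns hold their own comparison of the wt over the ko columns and were not used.

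Dividing by the value of 1 read gave whole reads for 100% of the values (tolerance 1e-06). The main test was limma 3.58.1 (R 4.3.3, trended) on log2 of the normalized count plus a pseudocount of 1, with a minimum mean of 10, p-values adjusted over all genes tested (Benjamini-Hochberg) and a threshold of 0.05. edgeR 4.0.16, DESeq2 1.42.0 and voom on the recovered reads were alternatives, beside TMM rescaling, pseudocounts, filters on low values, a replicate block and leaving out each library. Run on the recovered reads, edgeR called 7926 of 14072 genes (56.3%) and DESeq2 6646 of 15945 (41.7%). Without the filter on low values, limma called 7919 of 18872 (42.0%). The share of all genes called thus depended on the method and the filter. limma was kept as main because the deposited values are normalized. The limma script was also run on simulated data with far fewer changed genes than passed here, so that run does not test this setting. Positions and exon lengths came from GENCODE M21 (GRCm38), which 18118 of 18872 symbols (96.0%) matched, and promoter windows from RefSeq.

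The members and lists were chosen with earlier results of these data known. Named are the members, Saraf, the 4 tested genes with the smallest p in each pathway list, untested family genes, defining or abundant markers and the genes with profiles nearest the members'; other genes are marked as named after their values were seen, which also holds for the markers Mbp, S100b, Cdh19 and Stmn2. Some genes that the rule names are not reported here.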

Additional observations from a re-analysis of the deposited data

How the results depend on the processing

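The 5 members past the threshold, and the 29 higher and 35 lower genes of the pathway lists, were recomputed under 16 alternatives. The members' count was 5 under each but for 4 with at least 10 reads required in every library, where Ngfr (8 reads in its lowest library) was not tested, and 4 without WT-labelled replicate 2, where Ntrk2 was -0.43. The list counts stayed within 23 to 29 higher and 31 to 36 lower. Left-out libraries moved Ngfr between 3.11 and 3.55, and Gfra1 between -0.015 and 0.030, turning its sign in 3 of 6 fits (-0.015, -0.014 and -0.0022). The GDNF family count of 2 higher was 1 with DESeq2 and 1 with no filter, and 0 to 2 with a library left out, and the count of 2 lower among p75 partners was 1 with DESeq2 and 1 to 2 with a library left out. Bhlhe40 was -0.08 with DESeq2 (adjusted p = 0.11) and -0.08 with no filter (limma, adjusted p = 0.052). The cause of these shifts was not tested. Same-numbered libraries did not deviate together (r from -0.001 to 0.002), so no pairing by number was detected. With the replicate number as a block the members' count was 5 and the lists' 28 higher and 35 lower. All told, 813 of the recomputed values kept their direction and call, or for counts stayed within 1.5 times. Of the rest, 9 counts moved further, 3 differences turned sign and 7 lost their call. The filters and the replicate block leave a log2 difference unchanged by construction, so under them only its call could change. Depth limits Ntrk3 and Ret, at 18 reads or fewer per group.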

Other observations

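Genes with profiles nearest those of the members over the 6 libraries were found by the root mean square difference between centered log2 profiles. The 6 libraries fall into 2 clusters by label, so most of the likeness for Ngfr is the step between them. Alkbh3 (0.20), Hoxc9 (0.25) and Nr5a2 (0.26) lay nearest to Ngfr. Alkbh3, a demethylase that repairs alkylated nucleic acids, had 97.5 ± 8.39 normalized counts in the KO-labelled libraries and 7.85 ± 1.60 in the WT-labelled ones. Hoxc9, a homeobox gene of trunk position, had 63.6 ± 15.5 and 7.17 ± 2.06, and Nr5a2, a nuclear receptor, had 38.4 ± 6.26 and 4.24 ± 2.02. The nearest to each remaining tested member were Tmem151a for Ntf3 (0.06), Irf5 for Ntrk2 (0.06), Oxr1 for Sort1 (0.01), Dgke for Gdnf (0.01), Slc30a7 for Bdnf (0.008) and Tbce for Gfra1 (0.009).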
